A study of Homo sapiens with 6 samples.

Results

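The genes described here are 10 genes of the proteoglycan and hyaluronan matrix, out of 19775 genes with a usable probe set on the array: DCN (decorin), LUM (lumican), BGN (biglycan), FMOD (fibromodulin), VCAN (versican), BCAN (brevican), NCAN (neurocan), HAPLN1 (hyaluronan and proteoglycan link protein), CSPG4 (also called NG2) and HAS2 (hyaluronan synthase). They were chosen by gene family, around DCN and LUM, which were already known to have higher signals with the miR-10b decoy in the same comparison. The differences of the 10 genes are therefore described without p-values, and no test result is read from them. They were measured in U87-2M1 cells, an established invasive glioma subline that was recovered from U87 lung metastases grown experimentally in animals. All cells were at passage 4, were kept in hypoxia and carried a baculoviral vector. The vector held a control decoy in 3 samples and a miR-10b decoy, a transcript meant to bind the microRNA miR-10b, in the other 3. The labels do not say that the 3 samples of a group were separate cultures, so their spread may be technical, and the promoter that drives the decoys is not given in the sources used here.

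Proteoglycans are core proteins that carry long sulfated sugar chains. Decorin, biglycan, lumican and fibromodulin are small leucine-rich proteoglycans, which bind collagen fibrils, and decorin also binds growth factors and their receptors. Versican, brevican and neurocan are lecticans, large chondroitin sulfate proteoglycans that bind hyaluronan, with link proteins such as HAPLN1 fastening them to it. Hyaluronan is a sugar chain without a core protein, made at the cell surface by the HAS enzymes, and together with the lecticans it makes up much of the matrix of brain and of gliomas.

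Levels are given below as normalized signal, the deposited linear signal after quantile normalization, and differences as log2(signal + 7) of the miR-10b decoy minus the control decoy. Each gene had 1 to 7 probe sets, 31 in all for the 10 genes, and the one with the highest mean signal stood for the gene. A gene was tested where its mean lay at or above the filter level, a normalized signal of 14.2, which removed the dimmest 30% of genes. That left 13842 genes and 9 of the 10 described here, NCAN lying under it. Of these 9, 4 passed limma's threshold with higher signal (DCN, LUM, BCAN and HAS2) and 0 with lower signal, where 16.6% of all tested genes were higher and 17.3% lower. Since the genes were chosen with this comparison known, nothing is read from that count. The same holds wherever any of the 10 genes is said below to pass or not, or is ranked among the tested genes.

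**Figure D1:**
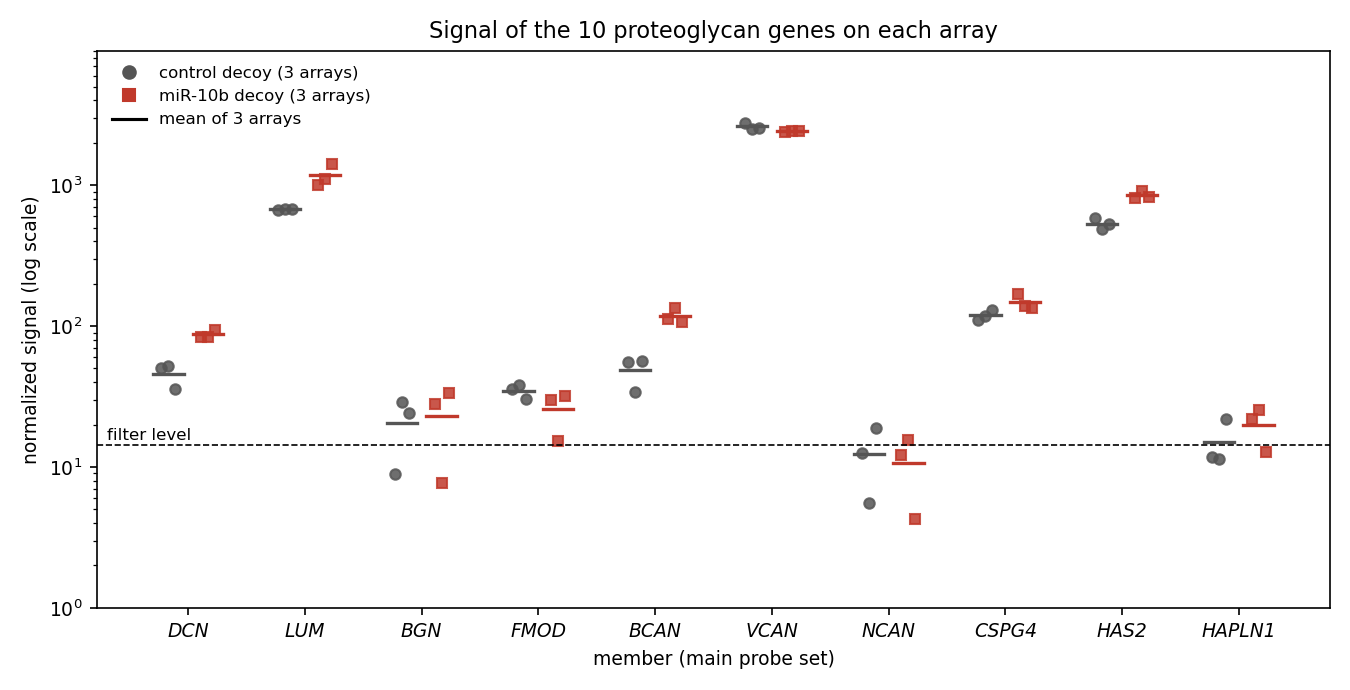
Normalized signal (log scale) of the main probe set of each of the 10 genes on the 3 control decoy arrays (grey circles) and the 3 miR-10b decoy arrays (red squares), with group means as bars and the filter level of 14.2 as a dashed line. The groups stand apart with higher decoy signal for DCN, LUM, BCAN, CSPG4 and HAS2, and BGN, NCAN and HAPLN1 have arrays on both sides of the filter level.

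LUM, whose product regulates the assembly of collagen fibrils, had a bright and steady signal in the control cells. Its main probe set read 671, 681 and 675 on control replicates 1 to 3 and 1000, 1104 and 1414 with the miR-10b decoy. Every decoy array lay above every control array, and the decoy arrays were spread more widely, with an SD of 215 against 5.08. The log2 difference was 0.77 (SE 0.10, n = 3 per group), a 1.71-fold higher signal, and 3.84% of the tested genes had a larger one. The second LUM probe set, much dimmer, read 26.0, 14.9 and 25.5 in controls and 39.3, 37.7 and 45.9 with the decoy. Its log2 difference of 0.74 was close to that of the first, and its groups did not overlap either.

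DCN, the core protein that binds collagen and sequesters TGF-beta, was dim in both groups. Its main probe set read 50.2, 52.2 and 35.7 in controls and 84.1, 83.7 and 93.6 with the decoy, so the groups stood apart. The log2 difference was 0.84 (SE 0.17, n = 3 per group), or 1.79-fold. Of the 7 DCN probe sets, 3 had a mean above the filter level, and all 3 had higher decoy means, with log2 differences between 0.48 and 0.84. Groups overlapped in 1 of these 3, which read 24.5, 24.1 and 40.5 in controls and 44.9, 58.3 and 30.6 with the decoy. The names of these 3 end in _x_at or _s_at, suffixes that mark probes shared with other transcripts. The other 4 probe sets, named without such a suffix, had means of 2.91 to 13.3, all under the filter level, and 1 of them had a lower decoy mean (log2 difference -0.18). With the mean of all 7 probe sets in place of the main one, the DCN difference was 0.50. A suffix for shared probes is also carried by the main probe sets of LUM (_s_at) and BGN (_x_at) and by every VCAN probe set. The dimmer LUM probe set is without one.

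BGN, a close relative of DCN, varied more within groups than between them. Its main probe set read 8.95, 28.9 and 24.1 in controls and 27.8, 7.64 and 33.6 with the decoy, which overlap throughout (log2 difference 0.07, SE 0.43). The sign turned in the signals as deposited (-0.085) and without control replicate 1 (-0.28), miR-10b decoy replicate 1 (-0.10) or miR-10b decoy replicate 3 (-0.21). A second BGN probe set read 7.51, 8.53 and 10.1 in controls and 18.6, 16.0 and 27.5 with the decoy, with all control arrays under the filter level. Its mean of 13.7 was also under that level.

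FMOD, a keratan sulfate proteoglycan like lumican, had 1 probe set. It read 35.7, 38.2 and 30.4 in controls and 29.7, 15.2 and 32.04 with the decoy, a log2 difference of -0.39 (SE 0.27). The groups overlapped after normalization but not in the signals as deposited, where all decoy arrays were lower and the difference was -0.57. The 4 small leucine-rich proteoglycans of the set therefore had differences of both signs.

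**Figure D2:**
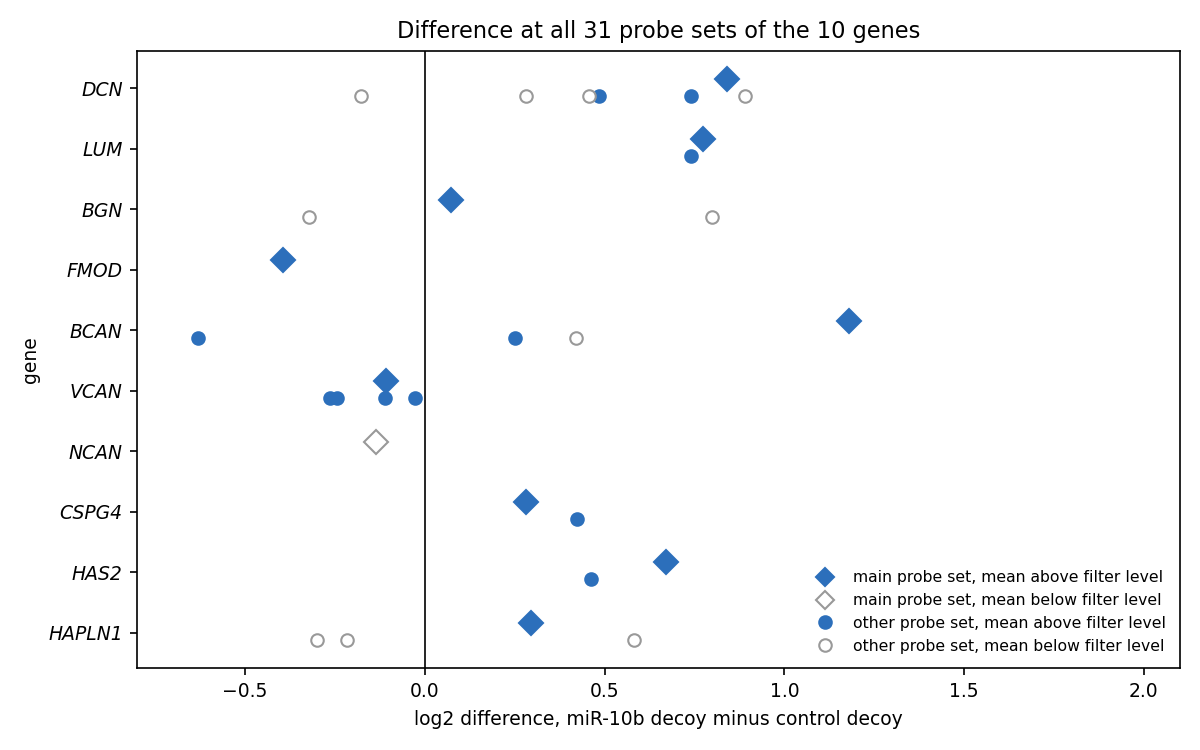
Log2 difference, miR-10b decoy minus control decoy, at all 31 probe sets of the 10 genes, with diamonds for the main probe set of each gene, circles for the others, and filled symbols where the mean signal lies above the filter level. The filled symbols lie right of 0 for LUM, HAS2, CSPG4 and DCN, left of 0 for all 5 VCAN probe sets, and on both sides for BCAN.

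Of 13 other small leucine-rich proteoglycans, 6 were tested and 0 passed in either direction by limma with Benjamini-Hochberg adjustment. Their median log2 difference was -0.07, against -0.02 over all tested genes. PRELP, a proteoglycan of cartilage and basement membranes, averaged 56.9 ± 10.99 on control arrays and 54.3 ± 10.9 on decoy arrays (SD, n = 3; log2 difference -0.06, adjusted p = 0.848). ASPN, KERA and EPYC, which encode asporin, keratocan and epiphycan, lay under the filter level on all 6 arrays.

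LUM and DCN are direct neighbours on chromosome 12 in the RefSeq gene table. The next genes beyond LUM in that table are KERA, EPYC and CCER1. KERA signal averaged 2.32 ± 1.84 on control arrays and 3.47 ± 1.98 on decoy arrays (SD, n = 3), and EPYC signal 0.332 ± 0.151 and 5.84 ± 3.02. None of these 3 genes was tested, and the 3 nearest genes on the DCN side, all long noncoding RNAs, had no probe set here.

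VCAN and BCAN are the lecticans among the 10 genes whose mean signals lay above the filter level, VCAN with a small lower value at every probe set and BCAN with the largest difference of the 10 genes at its main one. The 250 bases before their RefSeq start sites are shown so that both promoters can be compared. Capitals mark GC boxes (GGGCGG, on either strand, with overlapping matches joined). The VCAN window lies at chr5:83471494-83471743 and the BCAN window at chr1:156641867-156642116, both on the plus strand of GRCh38.p14.
VCAN: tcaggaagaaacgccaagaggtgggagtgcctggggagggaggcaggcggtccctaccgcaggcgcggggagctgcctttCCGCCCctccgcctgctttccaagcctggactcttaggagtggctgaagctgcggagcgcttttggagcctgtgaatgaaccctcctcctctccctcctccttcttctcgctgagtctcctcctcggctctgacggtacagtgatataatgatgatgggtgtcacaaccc
BCAN: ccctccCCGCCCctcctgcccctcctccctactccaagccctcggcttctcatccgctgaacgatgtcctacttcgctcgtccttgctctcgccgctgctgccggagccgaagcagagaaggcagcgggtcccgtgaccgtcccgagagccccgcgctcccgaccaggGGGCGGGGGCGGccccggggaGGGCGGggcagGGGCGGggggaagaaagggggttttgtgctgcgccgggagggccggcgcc

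The BCAN window held 5 GC boxes and was 74.0% G and C, and the VCAN window held 1 and was 60.8% G and C. A GC box occurs in 42.6% of the 35116 RefSeq promoter windows of this length, whose median GC content is 58.0%. Neither window held TATAAA (10.7% of windows), CCAAT (32%), the hypoxia response core ACGTG (18.5%) or the AP-1 letters TGANTCA (6.57%), searched on both strands. The RefSeq promoter table had entries for 6 of the 10 genes, namely VCAN, BCAN, FMOD, BGN, CSPG4 and HAPLN1. It had none for DCN, LUM, NCAN and HAS2.

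VCAN, the lectican of provisional and tumour matrix, gave a strong signal at all 5 of its probe sets. The main one read 2772, 2497 and 2563 in controls and 2379, 2439 and 2443 with the decoy. The decoy arrays were the lower ones, by a log2 difference of -0.11 (SE 0.05), which did not pass the threshold. The other 4 probe sets had differences between -0.27 and -0.03, all of the same sign, and the groups overlapped in 3 of the 5. After scaling the deposited signals to a common trimmed mean, the VCAN difference was -0.16.

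BCAN, a lectican largely restricted to the nervous system, had probe sets that disagreed. The main one read 55.2, 34.2 and 56.9 in controls and 112, 134 and 107 with the decoy. Those groups stood apart, with a log2 difference of 1.18 (SE 0.19, n = 3 per group), or 2.27-fold. A second one read 57.2, 21.7 and 42.3 in controls and 52.4, 30.9 and 60.9 with the decoy, overlapping throughout. The next one read 50.3, 55.0 and 32.9 in controls and 37.5, 32.1 and 14.9 with the decoy, a log2 difference of -0.63, and its groups overlapped in the normalized signal but not in the signal as deposited. The mean over the 4 BCAN probe sets gave a difference of 0.30, so the value for the gene rested on 1 probe set.

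NCAN, the other lectican of brain, read 12.6, 5.58 and 18.9 in controls and 12.1, 15.4 and 4.25 with the decoy. Its mean of 10.7 lay under the filter level, and no difference is drawn from it. HAPLN1, whose product ties lecticans to hyaluronan, read 11.8, 11.4 and 21.8 in controls and 21.9, 25.3 and 12.7 with the decoy (log2 difference 0.29, SE 0.34). These groups overlapped, and the other 3 HAPLN1 probe sets had means between 2.33 and 6.08, under the filter level.

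CSPG4 is a membrane-spanning chondroitin sulfate proteoglycan of glial progenitors, pericytes and many gliomas. It read 111, 118 and 130 in controls and 170, 139 and 134 with the decoy. The groups stood apart, but only narrowly, and the log2 difference of 0.28 (SE 0.12) did not pass the threshold. The second CSPG4 probe set read 64.1, 78.3 and 98.1 in controls and 122, 94.2 and 110 with the decoy, with a log2 difference of 0.42 and overlapping groups. In the signals as deposited the groups overlapped at both probe sets, while the main one had a difference of 0.35 with arrays centred on their medians. Counting main probe sets of the 9 tested genes, groups stood apart with higher decoy signal in 5 and with lower in 1, where 22.4% and 24% of all tested genes did so. Nothing is read from this count either, because the genes were chosen with the comparison known.

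HAS2, the main hyaluronan synthase of mesenchymal and glioma cells, had a bright signal at both of its probe sets, which carry no suffix for shared probes. The main one read 583, 487 and 528 in controls and 816, 916 and 823 with the decoy. All decoy arrays lay above all control arrays, with a log2 difference of 0.67 (SE 0.08, n = 3 per group), or 1.59-fold, and 5.42% of the tested genes had a larger one. The second HAS2 probe set read 367, 322 and 305 in controls and 433, 500 and 444 with the decoy. Its groups stood apart as well, with a log2 difference of 0.46. HAS3, another synthase, averaged 36.0 ± 6.56 on control arrays and 45.2 ± 3.93 on decoy arrays (SD, n = 3; log2 difference 0.29, adjusted p = 0.301 by limma), its second probe set reading the other way at -0.08. HAS1 had no probe set that carried its symbol alone.

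Among 25 partners of hyaluronan and the lecticans, 15 were tested, of which 1 rose, 2 fell and 12 did not pass. The list median was -0.15, against -0.02 over all tested genes, and 6.67% were higher and 13.3% lower, against 16.6% and 17.3%. TNFAIP6 (TSG-6), which transfers heavy chains onto hyaluronan and cross-links it, rose from 176 ± 24.2 to 466 ± 76.0 (SD, n = 3). Its log2 difference was 1.37 (SE 0.13, adjusted p = 1.2e-05), its groups stood apart, and its second probe set gave 1.37 as well. HMMR, a hyaluronan receptor that also acts on the mitotic spindle, fell from 1507 ± 131 to 997 ± 83.9 (log2 difference -0.59, adjusted p = 1.7e-04). LYVE1, the hyaluronan receptor of lymphatic vessels, read 26.4 ± 8.69 in controls and 8.37 ± 7.42 with the decoy, 2 of the 3 decoy values lying under the filter level, and the groups overlapped. It passed at adjusted p = 0.038, but not without miR-10b decoy replicate 2 (adjusted p = 0.106) or replicate 3 (adjusted p = 0.110), and without moderation its adjusted p was 0.142.

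CD44, the main hyaluronan receptor, had mean signals of 7490 in the control group and 7543 in the decoy group, a log2 difference of 0.01 (SE 0.04, adjusted p = 0.870), or -0.13 in the signals as deposited. Of its 12 other probe sets 11 lay above the filter level, none with the opposite sign. The mean of all 13 passed as higher, at 0.23 (adjusted p = 0.030). The size of the CD44 difference thus depended on the probe set. ACAN, the lectican aggrecan, had a control spread from 8.45 to 69.7 and did not pass (log2 difference 0.76, SE 0.44, adjusted p = 0.215). Of its other probe sets above the filter level, 2 of 3 had the opposite sign, and without control replicate 3 its main one passed at 1.26 (adjusted p = 0.034), whereas the mean of its 4 probe sets was -0.08.

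Among enzymes that build the chondroitin and dermatan sulfate chains of DCN, BGN and the lecticans, the shares that passed were near those of all tested genes. Of 30 listed genes 27 were tested, with 6 higher, 6 lower and 15 not passing (22.2% each way, against 16.6% higher and 17.3% lower over all tested genes), and a list median of -0.08. CSGALNACT2, which starts and extends chondroitin chains, rose from 604 ± 44.5 to 1381 ± 106 (SD, n = 3), a log2 difference of 1.18 (SE 0.08, adjusted p = 1.1e-06). CHST11, the chondroitin 4-O-sulfotransferase, rose from 183 ± 2.58 to 400 ± 31.9 (1.09, SE 0.09, adjusted p = 5.4e-06). CHST3, which sulfates the 6-O position of chondroitin, rose from 158 ± 17.2 to 267 ± 17.3 (0.73, adjusted p = 3.1e-04). XYLT1, the xylosyltransferase that links the chain to the core protein, fell from 2887 ± 75.9 to 2251 ± 114 (-0.36, adjusted p = 2.8e-04). In the signals as deposited the list counted 3 higher and 4 lower, where 1083 of all 13842 tested genes were higher and 2532 lower.

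For the keratan sulfate chains that LUM and FMOD can carry, 8 of 9 listed enzymes were tested and 1 rose, with 0 lower (12.5% higher, against 16.6% of all tested genes). That was CHST2, an N-acetylglucosamine 6-O-sulfotransferase, which went from 292 ± 19.7 to 512 ± 31.8 (SD, n = 3; log2 difference 0.79, SE 0.08, adjusted p = 3.5e-05).

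Heparan sulfate enzymes, which act on other proteoglycans, gave 2 higher and 5 lower of 13 tested, with 6 not passing and a median of -0.28. These are 15.4% and 38.5% of the list, beside 16.6% and 17.3% of all tested genes. HS3ST3B1, a 3-O-sulfotransferase, rose from 198 ± 21.4 to 491 ± 59.0 (SD, n = 3; log2 difference 1.28, SE 0.11, adjusted p = 7.2e-06), while its other probe set above the filter level stayed near 0 with the opposite sign. The chain polymerase subunit EXT2 fell (-0.51, adjusted p = 6.4e-04), and EXTL2, a related glycosyltransferase, fell too (-0.31, adjusted p = 0.0039). HS2ST1, a 2-O-sulfotransferase, passed as higher (0.44, adjusted p = 0.0055), but its probe sets disagreed. Their mean gave -0.03 (adjusted p = 0.845), and the signals as deposited did not pass (adjusted p = 0.099).

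**Figure D3:**
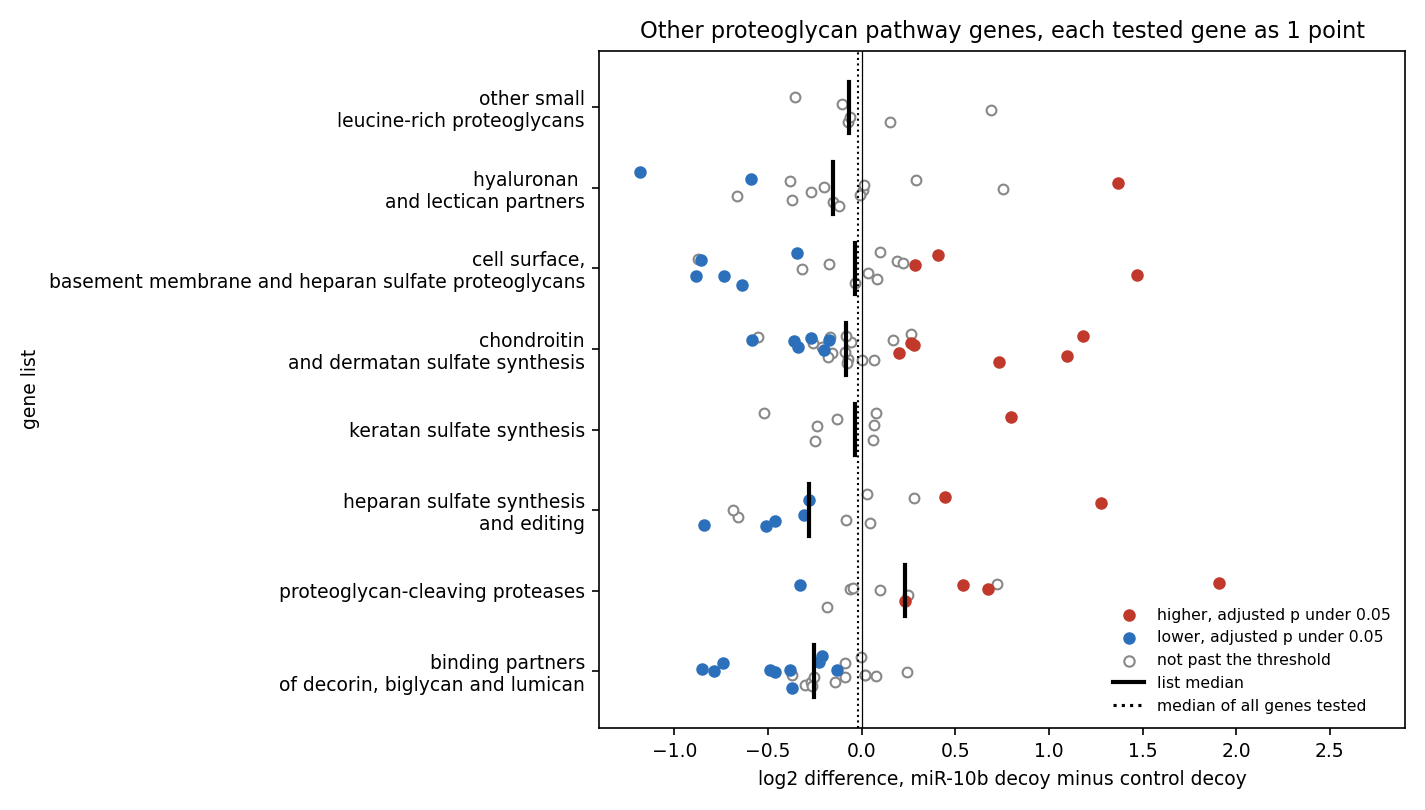
Log2 difference, miR-10b decoy minus control decoy, of every tested gene of 8 lists of proteoglycan pathway genes, with 1 point per gene, filled red where higher and filled blue where lower at limma's adjusted p under 0.05, a bar at each list median and a dotted line at the median of all tested genes. The binding partners of decorin, biglycan and lumican have 10 lower and 0 higher genes, and the cleaving proteases 4 higher and 1 lower.

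Among proteases that cut proteoglycan core proteins, ADAMTS5 had the largest rise. Of 16 listed genes 11 were tested, with 4 higher, 1 lower and 6 not passing, and a median of 0.23. The higher share was 36.4% and the lower share 9.09%, where all tested genes had 16.6% and 17.3%. ADAMTS5, which cleaves aggrecan and versican, rose from 824 ± 63.4 to 3109 ± 217 (SD, n = 3). That log2 difference of 1.91 (SE 0.07, adjusted p = 1.8e-08) was 3.75-fold, and its other 3 probe sets had differences between 1.08 and 1.79. MMP14, a membrane-bound metalloprotease, rose by 0.68 (SE 0.08, adjusted p = 6.2e-05), and MMP3 (stromelysin-1), which can degrade decorin, by 0.54 (adjusted p = 4.5e-04). The gelatinase MMP2 fell by 0.33 on the log2 scale (adjusted p = 0.0013), a call lost with the mean of its 3 probe sets (-0.17, adjusted p = 0.359). Without variance moderation MMP3 (adjusted p = 0.055) and MMP2 (adjusted p = 0.054) did not pass.

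A list of collagens, other matrix proteins, growth factors and receptors that bind decorin, biglycan or lumican gave 10 lower, 0 higher and 13 not passing of 23 tested. No receptor of the list was among the genes that passed. The lower share was 43.5%, where 17.3% of all tested genes were lower and 16.6% higher, and the list median was -0.25. COL1A2, a chain of the type I collagen on whose fibrils both decorin and lumican sit, fell from 4963 ± 133 to 2868 ± 160 (SD, n = 3), a log2 difference of -0.79 (SE 0.05, adjusted p = 1.0e-06). COL6A3, a type VI collagen chain, fell by 0.37 on the log2 scale (adjusted p = 7.4e-05). CCN2 (connective tissue growth factor) fell from 4082 ± 193 to 2263 ± 177 (-0.85, SE 0.06, adjusted p = 2.4e-06). TGFB2, one of the TGF-beta ligands, fell from 646 ± 18.9 to 384 ± 11.2 (-0.74, adjusted p = 1.4e-05), although 1 of its other probe sets above the filter level had the opposite sign. TGFB1 did not pass (141 ± 21.3 against 115 ± 15.5, log2 difference -0.27, adjusted p = 0.170). DCN and LUM thus had higher signal in the same arrays in which COL1A2 and COL6A3 had lower signal. Of the partner chains listed, COL6A1 was lower too (-0.23, adjusted p = 6.7e-04 by limma). COL1A1 (-0.14, adjusted p = 0.091) and COL6A2 (0.02, adjusted p = 0.868) did not pass. Other probe sets above the filter level had the opposite sign in 2 of 3 for COL1A1 and 3 of 5 for COL6A1.

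Proteoglycans of the cell surface and basement membrane, the class nearest to CSPG4 in location, gave 3 higher and 5 lower of 17 tested, with 9 not passing and a median of -0.04. The shares were 17.6% higher and 29.4% lower, beside 16.6% and 17.3% of all tested genes. SDC2 (syndecan-2) fell from 525 ± 16.9 to 282 ± 19.5 (SD, n = 3; log2 difference -0.88, SE 0.08, adjusted p = 1.2e-05). SDC4 (syndecan-4) rose from 2025 ± 30.8 to 2690 ± 17.7 (0.41, SE 0.04, adjusted p = 4.7e-05), a call lost in the signals as deposited (0.26, adjusted p = 0.125). GPC6 (glypican-6) fell by 0.64 on the log2 scale (adjusted p = 2.0e-04). SRGN (serglycin), a secretory granule proteoglycan, fell by 0.34 (adjusted p = 3.9e-04), but not with the mean of its 3 probe sets (-0.09, adjusted p = 0.440). Over the 8 lists together, 17 of 120 tested genes were higher and 29 lower (14.2% and 24.2%), where over all tested genes 16.6% were higher and 17.3% lower. In the signals as deposited the lists counted 10 higher and 30 lower, where 1083 of all 13842 tested genes were higher and 2532 lower.

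**Figure D4:**
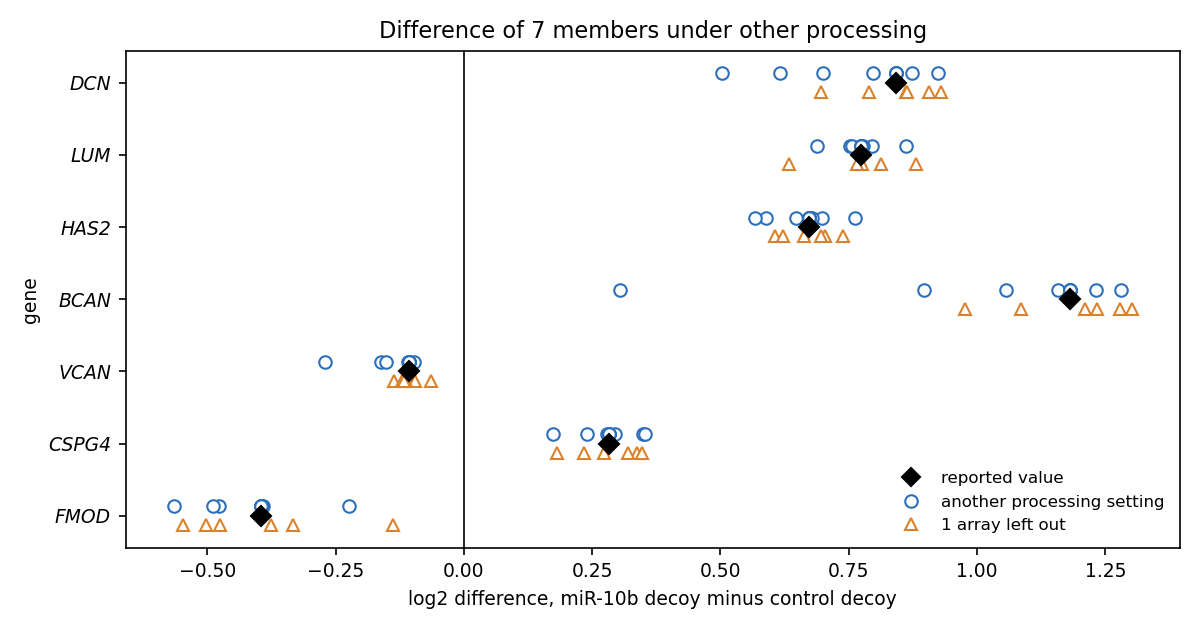
Log2 difference, miR-10b decoy minus control decoy, of 7 of the genes as reported (black diamonds), under other processing settings (blue circles) and with 1 array left out (orange triangles). All values lie right of 0 for DCN, LUM, HAS2, BCAN and CSPG4 and left of 0 for VCAN and FMOD; the lowest DCN and BCAN circles, at 0.50 and 0.30, are the means over all probe sets.

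The sizes of these differences moved with the processing as follows, given as a description only. Over 17 alternatives, LUM ranged from 0.63 to 0.88 and HAS2 from 0.57 to 0.76. DCN ranged from 0.50 to 0.93 over 16 alternatives and BCAN from 0.30 to 1.30 over 17, the lowest value of each being the mean of all its probe sets. DCN was not tested with the filter at the 50th percentile.

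The arrays themselves differed in a few ways that touch these values. Control replicate 3 was brighter as deposited, with a trimmed mean signal of 192 against 155 to 163 on the other arrays, and the median log2 difference over all genes was -0.14 before quantile normalization and -0.02 after it. Of the 4692 genes that passed, 49.0% were higher, against 30% in the signals as deposited and 62.2% with each array centred on its median. The 3'/5' signal ratio of actin, a sign of RNA integrity, was 5.28 to 6.22 on control arrays and 7.36 to 10.6 on decoy arrays, while that of GAPDH was 0.931 to 0.967 and 0.934 to 0.948. The part of this in the differences above was not tested.

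In RNA from a whole culture, fewer cells of a kind and less RNA per cell cannot be told apart, so markers of other cells were set beside these genes. All samples were the same established glioma subline, so signal of a marker listed for another cell type need not come from such cells. Here a marker is called above or under the filter level by its mean over the 6 arrays. Fibroblast markers, which matter for DCN and LUM, had 7 of 9 genes above the filter level, 1 higher (PDPN) and 0 lower, with TCF21 and MFAP5 under it. Their summed signal was 3640 to 3943 in controls and 3619 to 3825 with the decoy. Most of that sum was COL1A1, with means of 2750 in controls and 2485 with the decoy. Oligodendrocyte lineage markers, which matter for BCAN and CSPG4, had 3 of 7 genes above the filter level. Of these, MBP (log2 difference 0.42, adjusted p = 0.269 by limma) and MOG (-0.36, adjusted p = 0.476) did not pass. MBP had 9 probe sets, the others with differences between -0.05 and 1.48, and 3 of the others lay above the filter level, none with the opposite sign. For MOG the other probe sets, all under the filter level, had differences between 0.02 and 0.29. The list summed to 133 to 172 in controls and 349 to 414 with the decoy, a rise made up mostly by PDGFRA. In that list PDGFRA was the 1 higher gene, at 87.5 in controls and 285 with the decoy. That was its main probe set of 4 (log2 difference 1.63). The others had differences between -0.28 and 0.14, with 1 of them above the filter level. OLIG1, OLIG2 and SOX10 were not tested because their means over the 6 arrays lay under the filter level. OLIG2, a transcription factor of that lineage, nonetheless read 0.805 to 7.75 on control arrays and 19.6 to 29.8 on decoy arrays, so its groups stood apart with all 3 decoy arrays above the filter level. SOX10 read 3.58 to 13.6 and 11.5 to 21.99, overlapping, and OLIG1 stayed under the filter level on all 6 arrays.

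Smooth muscle and pericyte markers had 7 of 8 above the filter level, 1 higher (ABCC9) and 1 lower (ACTA2), with sums of 1183 to 1279 and 884 to 1002. ACTA2 made up most of these sums, with means of 1016 in controls and 687 with the decoy. ABCC9 was higher at its main probe set of 5 (log2 difference 0.90), while the others had differences between -0.04 and 0.15. Of the glial markers GFAP, S100B, AQP4 and FABP7, though typical of glioma tissue, lay under the filter level, with SLC1A2 and SLC1A3 higher and NES lower among the 5 of 9 above it (sums of 632 to 689 and 566 to 633). Most of the glial sums was NES, with means of 485 in controls and 371 with the decoy. Endothelial markers had 2 of 5 above the filter level, both lower (PECAM1 and TEK), with VWF, CDH5 and EMCN under it (sums of 231 to 275 and 171 to 191). Blood cell markers had 2 of 6 above it and epithelial markers 4 of 6, and 0 of these passed by limma. PTPRC, CD14, AIF1, CDH1 and KRT14 were under the filter level, and the sums were 71.9 to 121 and 85 to 117 for blood and 120 to 160 and 125 to 135 for epithelium. Whether any of these cell types was present, and its part in the differences of the 10 genes, was not tested.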

How the data were processed

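The deposited values are linear signal intensities, 1 for each of 54675 probe sets on each of 6 arrays, produced with MAS5 according to the submitters' processing notes. Neither its version nor its scaling is stated there. No detection calls were used. Probe sets with 1 gene symbol in the platform annotation (41097, against 1801 with several and 11777 with none) named genes. RefSeq gene names, gene neighbours and promoter sequences came from assembly GRCh38.p14. Signals were turned into log2(signal + 7) and quantile-normalized over all probe sets, because the deposited arrays did not share 1 scale. limma (version 3.58.1, R 4.3.3) compared the groups by lmFit and eBayes, letting the prior variance follow intensity. Its two-sided p-values were adjusted by Benjamini-Hochberg over 13842 genes, at a threshold of 0.05. The prior had 7.62 degrees of freedom against 4 residual ones. Genes named outside the 10 were up to 4 called genes of each list with the smallest p, 10 genes fixed by name and the 3 nearest genes on each side of the LUM and DCN pair. Added to these were COL1A1, COL6A1 and COL6A2, partner chains of named collagens, and the cell type markers. The 10 genes and all lists were chosen with earlier results of these data known. The added 7 shrinks fold changes of dim genes, and the number of arrays limits precision.

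Same-numbered arrays of the 2 groups did not deviate together (r of 0.033, -0.033 and -0.013 over genes), so the numbers were not treated as pairs.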

Additional observations from a re-analysis of the deposited data

How the results depend on the processing

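The alternatives were no normalization, centring on the array median, scaling to a trimmed mean, offsets of 1 and 32, no filter, a filter at the 50th percentile, the mean of all probe sets, no intensity trend, no moderation, the replicate number as a block, and each array left out. With the mean of all probe sets 3051 genes and 2 of the 10 genes passed (LUM and HAS2), and without moderation 2824 genes passed, against 4692 and 4 as reported. With the replicate block 4527 genes, 47 pathway genes and the same count of 4 passed. Of the 10 genes, 5 passed with arrays centred on their medians, where CSPG4 was added. Another 5 passed after scaling to a trimmed mean, where VCAN was added as lower, and 3 passed with the filter at the 50th percentile. Pathway genes that passed numbered 46 as reported and 31 to 48 under the other settings. Signs turned for HS2ST1 with the mean of all probe sets (-0.034), for 1 dim DCN probe set (-0.18) and for 1 BCAN probe set (-0.63). Among genes that did not pass, signs also turned for BGN and CD44 in 4 settings each, PRELP in 3 and ACAN in 1. The cause was not tested. Signals near the filter level limit BGN, NCAN, HAPLN1 and the weaker DCN probe sets.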
